A study of Drosophila melanogaster with 20 samples.

Results

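Genes of neuromodulator metabolism and signalling were followed in female Drosophila melanogaster after mating, 2 enzymes of dopamine metabolism (ple and Dat) and 2 neuropeptide precursors (sNPF and Nplp3). They are 4 of the 390 genes that could be named among 15744 gene rows of the arrays. All 4 were selected on measured values: ple, Dat and sNPF for their ratio in heads at 0-2 h after mating, and Nplp3 for its ratio in heads at 48 h, the experiments in whose list of leading genes the study placed them. Those 4 ratios are therefore given as a description without a test, and tests are given only for the experiments that did not choose the gene.

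Mated and age-matched virgin Canton S females were compared directly on 2-colour arrays in 5 experiments of 4 arrays each. Head experiments were made 0-2, 24, 48 and 72 h after mating, and a single experiment on dissected brains 24 h after it. Females were mated at 5 days of age to w; P[UAS-dj-GFP] males, 10 females with 20 males for 2 h, and a female counted as mated when GFP-marked sperm were seen in her abdomen. Each sample was a pool of about 100 heads or of 20 brains. Head cDNA was labelled directly from 20 µg of RNA, whereas brain RNA was amplified, so tissue and labelling method cannot be told apart. At 0-2 h mated and virgin females were both frozen straight after CO2 anaesthesia, and only the mated ones had been with males. Mated RNA carried Cy3 on replicates 1 and 2 and Cy5 on replicates 3 and 4. Every value below is a log2 ratio of mated over virgin females, so that 0 is no difference and 1 is a doubling, or a difference between such ratios. A ratio holds no level, so the labelled tissues could not be checked by the presence of their markers, and in pooled tissue fewer cells of a type and less RNA per cell cannot be told apart.

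Dopamine is made from tyrosine. The product of ple (pale, FBgn0005626), tyrosine hydroxylase, carries out the first and rate-limiting step, and the same pathway supplies the dopamine used to tan the insect cuticle. The product of Dat (FBgn0019643, CG3318, listed as speck in the current RefSeq annotation) is dopamine N-acetyltransferase, which acetylates dopamine and related amines and so takes them out of use. It is not the dopamine transporter, whose symbol is written in capitals. Neuropeptides are cut from precursor proteins and released by neurons and endocrine cells. The precursor sNPF (FBgn0032840) gives short neuropeptide F peptides, which promote feeding in flies, and Nplp3 (FBgn0042201) is a neuropeptide-like precursor. Mating changes a female fly for days, with less receptivity, more egg laying and more feeding.

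The 4 genes were measured often but not on every array. Values were present on 17 of 20 arrays for ple, 18 for Dat, 16 for sNPF and 17 for Nplp3, and between 4.79% and 8.68% of gene rows had as many values or more. That share counts all 15744 gene rows, some of which held different genes in the 2 print layouts of the arrays. The ratios that chose them were higher in mated females for ple, Dat and sNPF in heads at 0-2 h, and lower for Nplp3 in heads at 48 h. In the other experiments ple had its next highest ratio at 48 h, Dat at 24 h and Nplp3 its next lowest at 24 h, and no gene passed the adjusted threshold of 0.05 in any of them (limma, p adjusted by Benjamini-Hochberg across each experiment's probes).

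**Figure D1:**
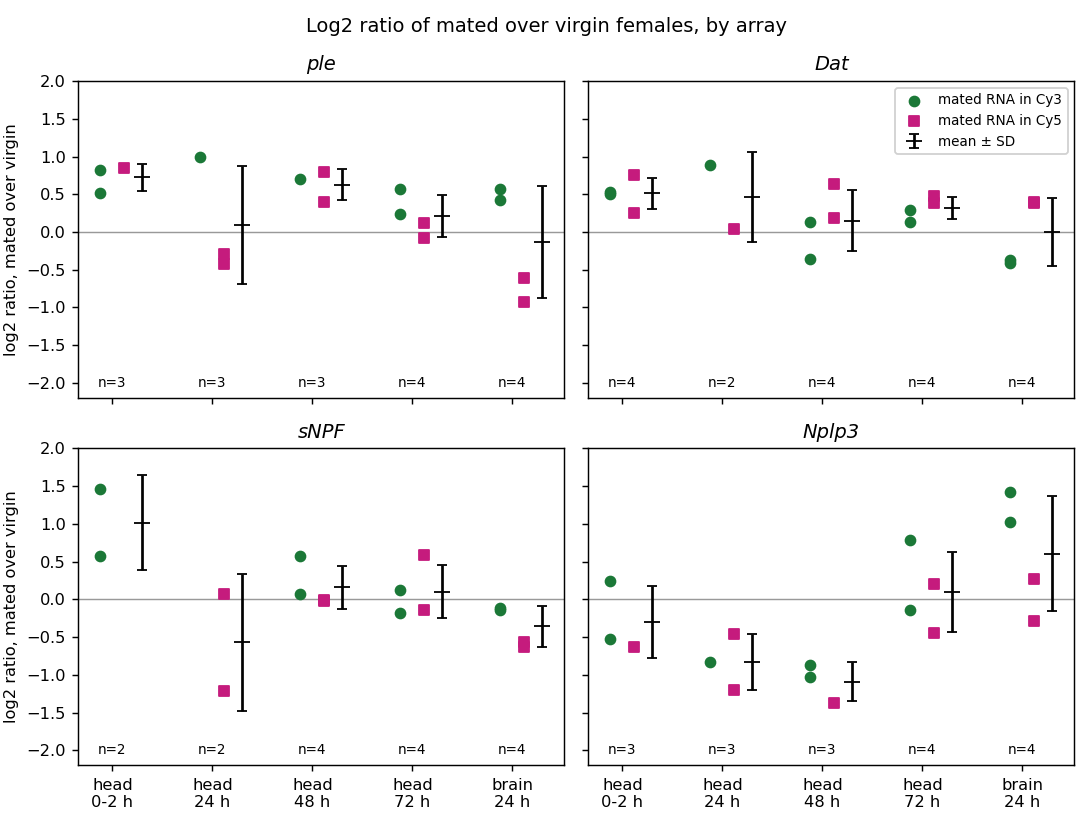
Log2 ratio of mated over virgin females for ple, Dat, sNPF and Nplp3 on each array, by experiment on the x axis, with green circles for mated RNA in Cy3, magenta squares for mated RNA in Cy5, and black bars for the mean ± SD. The 0-2 h values of ple, Dat and sNPF all lie above 0 and the 24 and 48 h values of Nplp3 all lie below it, while ple and Dat in brains lie on opposite sides of 0 in the 2 dye orientations.

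The ratio of ple was above 0 on each array of 2 experiments, heads at 0-2 and at 48 h. At 0-2 h it was 0.51, 0.82 and 0.84 on replicates 1 to 3, with no value on replicate 4. These values chose the gene, and their mean was 0.72 ± 0.18 (SD, n = 3), or 1.65-fold higher in mated females. At 48 h ple was 0.70 on replicate 1, 0.39 on replicate 3 and 0.79 on replicate 4, with no value on replicate 2. All 3 arrays were again higher in mated females, in both dye orientations. Of the 1517 probes with 4 values at 48 h, 30.3% had all 4 on the same side of 0. The share for probes with 3 values was not counted. The mean at 48 h was 0.63 ± 0.21 (SD, n = 3), or 1.55-fold, with a 95% interval of 0.23 to 1.03, an unadjusted p of 0.00768 and an adjusted p of 0.142 (limma). That ratio was above those of 97.4% of the 2981 probes tested at 48 h, and it did not pass the adjusted threshold. Without replicate 1 the unadjusted p was 0.051.

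In the other 3 experiments the arrays of ple did not share a direction. At 24 h in heads the values were 0.99, -0.43 and -0.29 on replicates 1, 3 and 4. The single Cy3 array was high and both Cy5 arrays were below 0. The mean of 0.09 ± 0.78 (SD, n = 3, adjusted p = 0.946) changed sign to -0.36 without replicate 1. At 72 h the values were 0.57, 0.23, -0.09 and 0.11, with a mean of 0.21 ± 0.28 (SD, n = 4, adjusted p = 0.722). Both Cy3 arrays lay above both Cy5 arrays. In brains the values were 0.42 and 0.56 with mated RNA in Cy3 and -0.61 and -0.92 with mated RNA in Cy5, and the mean of -0.14 ± 0.74 (SD, n = 4, adjusted p = 1.0) averaged groups of arrays that did not overlap.

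Ordered by mean, ple stood at 0.72 at 0-2 h, then 0.63 at 48 h, 0.21 at 72 h and 0.09 at 24 h in heads, and -0.14 in brains. No neighbours in that order could be told apart among the pairs tested. The difference of 72 h minus 48 h was -0.42 (95% interval -1.05 to 0.21, adjusted p = 0.803), and that of 72 h minus 24 h was 0.12 (95% interval -0.53 to 0.76, adjusted p = 0.942). Brains minus heads at 24 h gave -0.23 (95% interval -1.21 to 0.76, adjusted p = 0.885). Farther apart in that order, 48 h minus 24 h in heads was 0.54 (limma, unadjusted p = 0.110, adjusted p = 0.762). It moved with the 24 h array left out. Without replicate 1 it was 0.99, with an unadjusted p of 0.000953 and an adjusted p of 0.0939 (limma). In that fit 12.5% of all probes tested had an unadjusted p under 0.05. Without replicate 3 it was 0.28 (limma, unadjusted p = 0.409) and without replicate 4 it was 0.35 (limma, unadjusted p = 0.334).

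Dat was higher in mated females on each array with a value in 3 of the 4 head experiments, of which 0-2 h chose it and 24 h had only 2 values. At 0-2 h, the values that chose it were 0.51, 0.53, 0.76 and 0.25, a mean of 0.51 ± 0.21 (SD, n = 4), or 1.43-fold. The 2 dye orientations had nearly the same mean, 0.52 for Cy3 and 0.51 for Cy5. Of the 1232 probes with 4 values at 0-2 h, 11.4% had all 4 on the same side of 0. At 72 h the values were 0.14, 0.29, 0.48 and 0.38. All 4 were above 0, with a mean of 0.32 ± 0.15 (SD, n = 4, 1.25-fold), the smallest spread of Dat in any experiment. The 95% interval was 0.07 to 0.57, the unadjusted p was 0.0180 and the adjusted p was 0.448 (limma), and 20.4% of probes with 4 values at 72 h likewise had all 4 on the same side of 0. Without replicate 3 the unadjusted p was 0.0937.

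At 24 h Dat had 2 values, 0.89 on replicate 1 and 0.04 on replicate 4, with a mean of 0.47 ± 0.60 (SD, n = 2, adjusted p = 0.745). The share of probes with 2 values there that had both on the same side of 0 was not counted. At 48 h the values were 0.14, -0.36, 0.19 and 0.64, and the mean of 0.15 ± 0.41 (SD, n = 4, adjusted p = 0.768) was within their spread. In brains the values were -0.37 and -0.41 with mated RNA in Cy3 and 0.40 and 0.38 with mated RNA in Cy5. The brain arrays thus fell into pairs of the same dye orientation, on opposite sides of 0 at nearly equal distance. The mean of the brain arrays was 0.00 ± 0.45 (SD, n = 4). Dye orientation went with replicate number, so dye cannot be told apart here from other differences between those pairs of samples. In order of its mean ratio, Dat ran from heads at 0-2 h (0.51) through 24 h (0.47), 72 h (0.32) and 48 h (0.15) to brains (0.00). The neighbours that could be tested did not differ beyond their spread: 72 h minus 24 h was -0.14 (95% interval -0.75 to 0.46, adjusted p = 0.936) and 72 h minus 48 h was 0.17 (95% interval -0.31 to 0.65, adjusted p = 0.925). Between brains and heads at 24 h the difference was -0.47 (95% interval -1.31 to 0.38, adjusted p = 0.729).

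For the precursor sNPF the highest ratio came from the experiment that chose it and rested on 2 arrays, as few as at 24 h. At 0-2 h it was 1.46 on replicate 1 and 0.58 on replicate 2, with no value on replicates 3 and 4. The mean of 1.02 ± 0.62 (SD, n = 2), or 2.02-fold, thus came from arrays of a single dye orientation. At 24 h in heads the present values were those of the opposite orientation, -1.21 on replicate 3 and 0.07 on replicate 4. These arrays differed from each other by more than the mean differed from 0, which was -0.57 ± 0.91 (SD, n = 2, adjusted p = 0.745). The 0-2 and 24 h ratios of sNPF thus had no dye orientation in common.

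At 48 h sNPF was 0.08, 0.58, -0.02 and -0.01 on replicates 1 to 4. Replicate 2 lay apart from the other arrays, which were near 0, and the mean was 0.16 ± 0.28 (SD, n = 4, adjusted p = 0.708). At 72 h the values were 0.13, -0.18, -0.14 and 0.59, with a mean of 0.10 ± 0.35 (SD, n = 4, adjusted p = 0.885). In brains the values were -0.14, -0.11, -0.63 and -0.57. All 4 brain arrays were below 0, and 14.8% of probes with 4 values there likewise had all 4 on the same side of 0. The mean of -0.36 ± 0.27 (SD, n = 4), or 1.28-fold lower in mated females, had an interval of -0.76 to 0.04, an unadjusted p of 0.0713 and an adjusted p of 0.916. Both Cy5 arrays in brains lay below both Cy3 arrays.

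The order of sNPF by mean was 1.02 at 0-2 h, 0.16 at 48 h, 0.10 at 72 h, -0.36 in brains and -0.57 at 24 h in heads. Among heads the 48 and 72 h ratios were next to each other, with a difference of -0.06 (95% interval -0.69 to 0.58, adjusted p = 0.977), and brains minus heads at 24 h was 0.21 (95% interval -0.65 to 1.07, adjusted p = 0.879). The 24 h heads lay below the 48 h heads by 0.73 (95% interval -0.06 to 1.51, adjusted p = 0.689) and below the 72 h heads by 0.67 (95% interval -0.13 to 1.47, adjusted p = 0.674), and neither difference passed the threshold.

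Nplp3 was lower in mated females on each array with a value at 2 head time points, 24 and 48 h. At 48 h, the experiment that chose it, the values were -1.03, -0.87 and -1.38 on replicates 1, 2 and 4, a mean of -1.09 ± 0.26 (SD, n = 3), or 2.13-fold lower in mated females. At 24 h, which did not choose it, the values were -0.83, -0.46 and -1.20 on replicates 1, 3 and 4. All 3 arrays were lower in mated females. The 1 Cy3 array and the mean of the 2 Cy5 arrays were both -0.83, but those 2 Cy5 arrays lay apart, at -0.46 and -1.20. Of the 246 probes with 4 values at 24 h, 17.1% had all 4 on the same side of 0. The share for probes with 3 values was not counted. The mean at 24 h was -0.83 ± 0.37 (SD, n = 3), or 1.78-fold lower, with a 95% interval of -1.39 to -0.28, an unadjusted p of 0.0113 and an adjusted p of 0.450 (limma). Only 3.91% of the 4140 probes tested at 24 h had a lower ratio, and the adjusted threshold was not passed. Without replicate 4 the unadjusted p was 0.109.

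At the first and last head time points Nplp3 had no shared direction across arrays. At 0-2 h its values were 0.24, -0.52 and -0.64 on replicates 1, 2 and 4, with a mean of -0.31 ± 0.48 (SD, n = 3, adjusted p = 0.907). At 72 h they were -0.14, 0.79, 0.21 and -0.45, with a mean of 0.10 ± 0.53 (SD, n = 4, adjusted p = 0.908). The 72 h arrays overlapped those of 0-2 h, and their lowest value, -0.45, was next to the highest of 24 h, -0.46. Of the 845 probes with 4 values at 72 h and 3 at 24 h, 10.5% had arrays that did not overlap between the experiments, in either direction. In brains the values were 1.42, 1.02, 0.26 and -0.28. The Cy3 arrays were both far above 0 and the Cy5 arrays were on either side of it, and the mean was 0.61 ± 0.76 (SD, n = 4), with an interval of -0.06 to 1.27, an unadjusted p of 0.0684 and an adjusted p of 0.910.

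At the same 24 h, the ratio of Nplp3 was 0.61 in brains and -0.83 in heads. No head array overlapped a brain array, the highest head value being -0.46 and the lowest brain value -0.28, as was so, in either direction, for 13.3% of the 1186 probes with as many values. The difference of 1.44 (SE 0.40, 95% interval 0.57 to 2.31) had an unadjusted p of 0.00392 and an adjusted p of 0.208 over the 2499 probes tested, which missed the threshold (limma). Head 72 h minus head 24 h was 0.93 (SE 0.31, 95% interval 0.27 to 1.59), with an unadjusted p of 0.00910 and an adjusted p of 0.356. From low to high, Nplp3 stood at -1.09 at 48 h, -0.83 at 24 h, -0.31 at 0-2 h and 0.10 at 72 h in heads, and at 0.61 in brains. The steps from 24 to 0-2 h (24 h minus 0-2 h -0.52, 95% interval -1.23 to 0.18, adjusted p = 0.519) and from 0-2 to 72 h (72 h minus 0-2 h 0.41, 95% interval -0.24 to 1.06, adjusted p = 0.949) were within the spread.

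**Figure D2:**
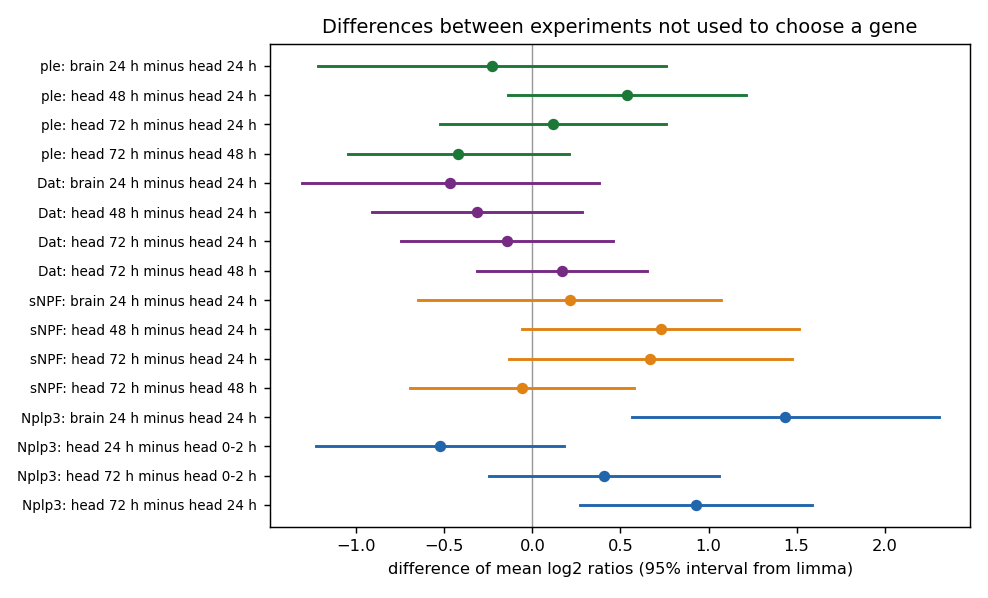
Differences of mean log2 ratios between experiments that did not choose the gene, on the x axis, with points for the estimate and lines for the 95% interval, 1 row per gene and pair of experiments. The intervals of Nplp3 for brains minus heads at 24 h (0.57 to 2.31) and for heads at 72 h minus 24 h (0.27 to 1.59) lie above 0, and all the others include it.

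Outside the experiments that chose them, the 4 genes gave 16 tests against 0, of which 0 passed the adjusted threshold and 3 had an unadjusted p under 0.05 (limma), each of them lost on leaving out 1 array. At 0-2 h only Nplp3 could be tested and it had no adjusted or unadjusted p under 0.05, where 0.0775% of 3871 probes passed adjusted and 6.33% unadjusted. At 24 h in heads 0 of 4 genes passed adjusted, against 0.0242% of 4140 probes, and Nplp3 alone passed unadjusted, against 7.87%. At 48 h, of the 3 genes tested, none passed adjusted, against 2.48% of 2981 probes, and ple alone passed unadjusted, against 15.1%. At 72 h 0 of 4 genes passed adjusted, against 0.0779% of 6416 probes, and Dat alone passed unadjusted, against 8.49%. In brains 0 of 4 genes passed either rule, against 0.0% of 6498 probes adjusted and 5.66% unadjusted.

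The unadjusted background itself moved with single arrays, from 2.01% (without replicate 2) to 12.2% (without replicate 3) at 0-2 h and from 4.29% (without replicate 4) to 15.6% (without replicate 1) at 24 h in heads.

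Of the 16 tests of differences, 0 passed adjusted and 2 passed unadjusted, both of Nplp3. For brains minus heads at 24 h, 0.2% of 2499 probes passed adjusted and 8.72% unadjusted, and for heads at 72 h minus 24 h, 0.144% of 2782 probes passed adjusted and 8.41% unadjusted. In the other 4 differences none of the genes tested passed either rule. The adjusted and unadjusted backgrounds there were 0.0% and 7.66% for 48 h minus 24 h, 0.27% and 8.15% for 72 h minus 48 h, 0.818% and 13.5% for 24 h minus 0-2 h, and 0.0375% and 5.78% for 72 h minus 0-2 h.

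**Figure D3:**
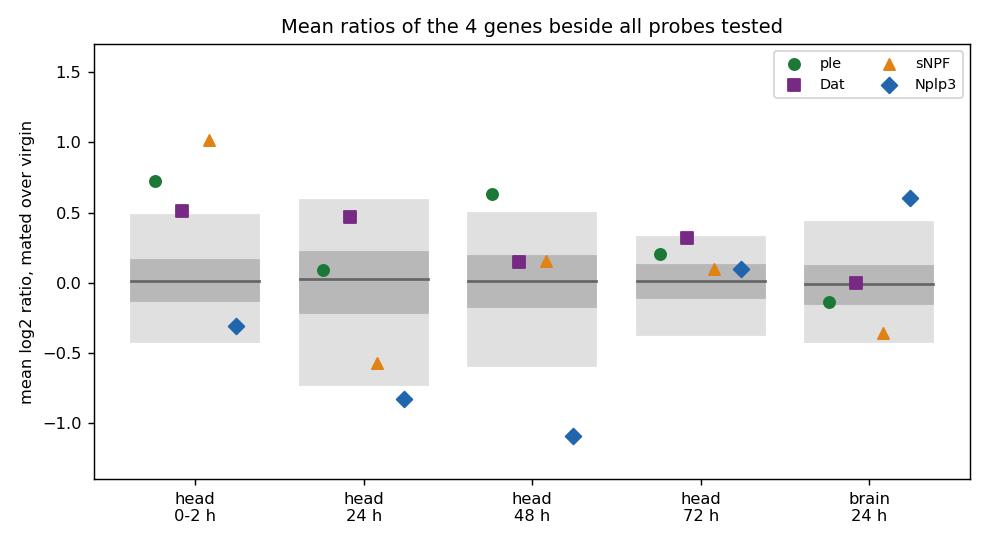
Mean log2 ratio of each of the 4 genes by experiment, beside all probes tested there, with a light box from the 5th to the 95th percentile, a dark box from the 25th to the 75th and a line at the median. Points outside the light box are ple, Dat and sNPF at 0-2 h, ple and Nplp3 at 48 h, and Nplp3 at 24 h and in brains, where 97.7% of probes had a lower ratio than Nplp3.

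The dye orientation moved with several of these values. In brains, 42.5% of the 5078 probes with 4 values had both Cy3 arrays on 1 side of 0 and both Cy5 arrays on the other, and ple and Dat, 2 of the 4 genes, were among them. They split in opposite senses. The Cy3 mean minus the Cy5 mean was 1.26 for ple and -0.78 for Dat. For Nplp3 it was 1.23, and 6.46% of those probes had a difference at least as large, against 5.61% for ple and 25.6% for Dat. In heads at 24 h, where at least 1 array was empty for each of these genes, the Cy3 mean minus the Cy5 mean was 1.35 for ple and 0.85 for Dat, larger in size than in brains. Across all probes, arrays of the same orientation correlated at r = 0.59 to 0.64 in brains and 0.62 to 0.69 at 0-2 h, while arrays of opposite orientation correlated at -0.39 to -0.22 and -0.46 to -0.39. In heads at 24 h arrays of the same orientation correlated at -0.04 to 0.48 and of opposite orientation at -0.07 to 0.13. At 48 h these were 0.58 to 0.70 and 0.14 to 0.44, and at 72 h 0.13 to 0.19 and -0.08 to 0.38. Whether dye took part in any ratio of these genes was not tested beyond a fit with a term for it.

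**Figure D4:**
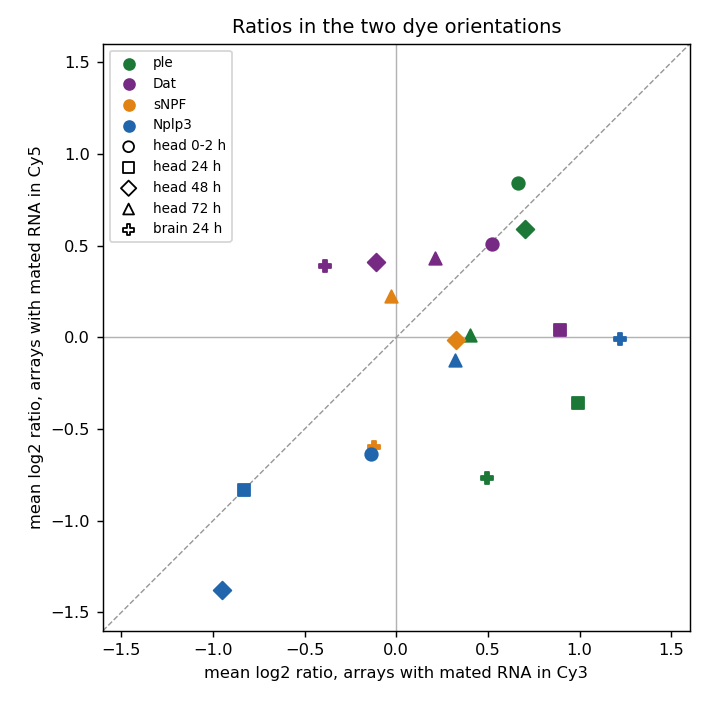
Mean log2 ratio on the arrays with mated RNA in Cy3 (x axis) against that on the arrays with mated RNA in Cy5 (y axis), with color for the gene and shape for the experiment, where both orientations had a value. Dat at 0-2 h and Nplp3 at 24 h lie on or close to the dashed line of equal values, and ple at 24 h in heads (Cy3 minus Cy5 1.35) and in brains (1.26) and Nplp3 in brains (1.23) lie farthest from it, with Dat in brains (-0.78) on the other side. At 24 h in heads the Cy3 value of ple, Dat and Nplp3 is that of a single array.

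The wider pathways could be followed only as far as their genes had names. Of biogenic amine genes (synthesis, breakdown, transport and receptors), 24 symbols were looked for, some of them synonyms. Of these, ple and Dat were the 2 with a named row. Both had a mean above 0 in each of the 4 head experiments. The lower mean was 0.51 (Dat) at 0-2 h, 0.09 (ple) at 24 h, 0.15 (Dat) at 48 h and 0.21 (ple) at 72 h. The median over all probes tested was above 0 there too, at 0.01, 0.03, 0.01 and 0.01. The 0-2 h means chose both genes, and at 24 h ple was below 0 on 2 of 3 arrays. In brains the means were -0.14 (ple) and 0.00 (Dat). Another 47 symbols of neuropeptide and peptide hormone genes were looked for, synonyms and some receptors among them. Of these, 3 had a named row: sNPF, Nplp3 and Ilp5, an insulin-like peptide made by neurosecretory cells of the brain. Ilp5 had a mean of -0.59 ± 0.09 (SD, n = 3) at 72 h and -0.41 ± 0.29 (SD, n = 4) in brains, lower in mated females on each array with a value, and no 2 values in the other experiments. A gene had a name only where the study listed it among leading genes, so these lists hold genes picked on these arrays.

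Across arrays, the ratios of the 4 genes correlated in pairs to differing degrees. The highest correlation among their pairs was between ple and sNPF, with r = 0.59 over 15 arrays, and the lowest was between Dat and Nplp3, with r = -0.39 over 16 arrays. The other pairs lay between -0.10 and 0.16. These are descriptions over arrays that share experiments and dye orientation.

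Among up to 236 named genes with values on enough shared arrays, 3 are given for each of the 4 whose ratios were most like it. For ple they were B4 (r = 0.94 over 11 arrays), CG32350 (r = 0.85 over 11) and CG31324 (r = 0.83 over 8). For Dat they were CG6654 (r = 0.82 over 11), CG12736 (r = 0.80 over 10) and CG31302 (r = 0.72 over 13). For sNPF they were orb2, an RNA-binding regulator of translation (r = 0.87 over 16), CG14408 (r = 0.85 over 12) and mib2 (r = 0.85 over 11). For Nplp3 they were CG17325 (r = 0.88 over 16), CG5793 (r = 0.83 over 16) and CG10184 (r = 0.81 over 9). The arrays include those that chose each gene, and 10 of the 12 genes were themselves named through the study's list for the experiment that chose the gene they resemble, so the likeness is not independent of that selection. With the arrays of that experiment left out, a comparison chosen after the data were seen, the 12 correlations were 0.65 (mib2 with sNPF, 9 arrays) to 0.95 (B4 with ple, 9 arrays). The median r over the candidates was near 0 for Dat (-0.00), -0.09 for ple, -0.17 for sNPF and 0.27 for Nplp3.

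Markers of other tissues in the head moved in the same experiments. Fat body genes (Lsp1beta, Lsp2, Obp99a, Obp99b, fit and to, which encode storage and secreted proteins) had means above 0 for 5 of 5 measured at 0-2 h (0.28 to 0.96), where ple, Dat and sNPF were high. They were below 0 for 5 of 5 at 24 h (-4.21 to -0.90) and 6 of 6 at 48 h (-4.05 to -0.84), where Nplp3 was low, though ple was at 0.63 at 48 h. They were also below 0 for 5 of 6 at 72 h (-2.50 to 0.16) and 6 of 6 in brains (-0.90 to -0.06), where the means of Nplp3 were above 0, at 0.10 and 0.61. Eye genes (Rh4, Rh5, retinin, trpl, Gbeta76C and rdgA, of lens and phototransduction) were above 0 for 4 of 4 at 24 h in heads (0.74 to 1.65), where Nplp3 was low, and for 3 of 4 in brains (-0.02 to 1.03), where its mean was 0.61. They were above 0 for 0 of 3 at 0-2 h (-0.37 to -0.11), 0 of 2 at 48 h (-0.15 to -0.09), where Nplp3 was also low, and 3 of 4 at 72 h (-0.04 to 1.03). Genes of neuronal channels and synapses (cac, Sh, cpx, pHCl, Ca-beta and Teh1) were below 0 for 6 of 6 in brains (-1.01 to -0.54), where the mean was -0.36 for sNPF and 0.61 for Nplp3. But all 6 were named through the study's list of leading genes in brains, so that count is not independent of how they were picked. In heads they were below 0 for 1 of 3 at 0-2 h (-0.08 to 0.14), 2 of 3 at 24 h (-0.40 to 0.11), 1 of 2 at 48 h (-0.14 to 0.15) and 5 of 6 at 72 h (-0.26 to 0.04). The fat body and eye genes too were named through the study's lists for the experiments where they stood out, and the part of any of these markers in the ratios of the 4 genes was not tested.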

How the data were processed

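The authors deposited 1 table of log2 ratios of mated over virgin females, with 20 array columns, normalized and turned for the dye swap; limma is named in their processing notes. For background correction, within-array normalization and the reason for empty cells, the method is not given in the sources used here. Gene names are absent from the table. Of its 15776 rows, 32 controls were left out. Rows were named by matching mean ratio (relative tolerance 2e-05) and p (0.001) to the 500 entries of the study's lists of leading genes; 495 matched and named 390 genes. The listed ratios equalled the antilog of a row's mean over its arrays, so the values are log2 and already turned, and only names were taken from the lists. The 2 print layouts shared gene positions on plates 2 to 30, where 44 genes listed in both matched the same row and 0 another, and all 4 genes lie there.

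Ratios were fitted per experiment with limma 3.58.1 in R 4.3.3 (lmFit, eBayes) on the 4 arrays, for probes with at least 2 values. Differences between head time points used all 16 head arrays, and brains minus heads the 8 arrays at 24 h. p-values were adjusted by Benjamini-Hochberg over all probes tested, with a threshold of 0.05. Arrays are the replicates, and their number limits the precision. The scripts were tested on simulated data. The genes named are the 4 chosen, amine and peptide genes of fixed lists, marker genes, and the 3 most correlated named genes over at least 8 shared arrays of 3 or more experiments. The 4 genes and all lists were chosen with earlier results of these data known. Alternatives are given with their effects in the closing section.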

Additional observations from a re-analysis of the deposited data

Results flagged for a closer look

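The ratio of sNPF at 48 h on replicate 2, 0.58, lay away from the other 3 arrays of that experiment by more than Dixon's 95% limit for 4 values. Chance gives such a gap in about 1 in 20 groups, and 11 groups of 4 values were looked at.

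The ratios of sNPF went in opposite directions in heads at 0-2 h and in brains at 24 h. Both arrays with a value at 0-2 h were above 0, and all 4 brain arrays were below 0. The 0-2 h arrays both had mated RNA in Cy3, and the 2 brain arrays of that orientation were at -0.14 and -0.11. The share of all probes that separated in this way was not counted. The means differed by -1.38 (brains minus heads at 0-2 h). This difference was not tested, because the 0-2 h ratio chose the gene, and it compares experiments that differ in time, tissue and labelling.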

How the results depend on the processing

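For the 4 genes, 36 results (ratios and differences) were recomputed under 370 alternatives: centring or scaling of arrays, a term for dye, values on all 4 arrays, robust eBayes, other sets of arrays in the fit, a replicate block, and each array left out in turn. The 4 ratios that chose the genes had no test. Over the 340 alternatives with a test no result passed the adjusted threshold, the lowest adjusted p being 0.0932 (ple at 48 h, arrays scaled to one spread). Of all 370 alternatives, 346 kept the direction and 24 changed sign, 20 of these on leaving out 1 array. With arrays scaled, Dat became -0.012 in brains and 0.13 for 72 h minus 24 h. The difference of sNPF between brains and heads at 24 h became -0.025 both with a dye term and with a replicate block. Leaving out arrays gave -0.36 to 0.35 for ple at 24 h, -0.37 to 0.12 for ple in brains, -0.011 to 0.32 for Dat at 48 h and -0.13 to 0.14 for Dat in brains. It gave -0.064 to 0.19 for sNPF and -0.13 to 0.28 for Nplp3 at 72 h. Among differences it gave -0.49 to 0.22 for ple and -0.43 to 0.85 for sNPF in brains minus heads, -0.74 to 0.11 for Dat at 48 h minus 24 h, -0.14 to 0.57 for ple and -0.57 to 0.28 for Dat at 72 h minus 24 h, and -0.00019 to 0.33 for Dat and -0.22 to 0.081 for sNPF at 72 h minus 48 h. Values for sNPF and Dat with a head 24 h array left out rest on 1 array there, assumed to vary like the rest. The causes were not tested.

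For Nplp3, brains minus heads at 24 h ranged from 1.16 to 1.73 on leaving out arrays, was 1.31 (adjusted p = 0.116) with a dye term and 1.30 (adjusted p = 0.147) with a replicate block; over all its alternatives the adjusted p was 0.116 to 0.536. With a dye term the unadjusted p was 0.00289 for its brain ratio (adjusted p = 0.131, range over alternatives 0.131 to 1.0), 0.0415 for its 0-2 h ratio (adjusted p = 0.316, range 0.316 to 0.999) and 0.00797 for sNPF in brains (adjusted p = 0.153, range 0.153 to 1.0). With that term 17.3% of all probes tested in brains and 14.5% at 0-2 h had an unadjusted p under 0.05 (limma), more than in the main fits. The replicate block changed no call. Deviations of same-numbered arrays correlated above 0.1 for all 4 numbers between heads at 0-2 and 48 h (0.17 to 0.47), a pair not among the differences tested. They did not for all 4 in any other pair, so the numbers were not taken to pair the arrays.

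Counts of probes past the adjusted threshold moved more. At 0-2 h 3 probes became 47 with a dye term, 9 with all 20 arrays in the fit, 1 with values on all 4 arrays, 0 with arrays centred and 0 to 2 on leaving out an array. At 24 h in heads 1 became 51 with a dye term, 104 with all 20 arrays, 0 with arrays scaled, 0 with values on all 4 arrays and 1 to 3 on leaving out an array. At 48 h 74 became 113 with all 20 arrays and 14 (without replicate 3) to 91 on leaving out an array. At 72 h 5 became 47 with a dye term, 12 with arrays scaled, 0 with values on all 4 arrays and 3 to 12 on leaving out an array. In brains 0 became 6 with a dye term, 1 with values on all 4 arrays and 3 with all 20 arrays. For differences, leaving out an array gave 0 to 25 for brains minus heads (5), 1 to 13 for 48 h minus 24 h (0), 0 to 35 for 72 h minus 24 h (4), 0 to 14 for 72 h minus 48 h (8, and 0 with a replicate block), 16 to 74 for 24 h minus 0-2 h (26) and 0 to 5 for 72 h minus 0-2 h (1). Genes with fewer than 4 values gave no value with all 4 arrays required, and a ratio with 2 values gave none with an array left out.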
